A study of Mus musculus with 2 samples.

Results

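The receptors described here are those of the CD28 family (Cd28, Icos, Ctla4, Pdcd1 and Btla) and 5 further receptors that restrain or drive T and NK cells (Cd160, Lag3, Havcr2, Cd96 and Cd226). The 10 genes were picked with earlier results of these data known, and their probe sets were then found by gene symbol. All probe sets whose platform annotation gives 1 of these 10 symbols, and no other, were taken, which gave 16 probe sets for 10 genes, out of 34945 probe sets with 1 symbol for 18193 genes. RNA came from 1 preparation of naïve CD44- gamma/delta T cells and 1 of naïve CD8+ alpha/beta T cells. Both were taken from lymph nodes of C57BL/6 mice, with no allele or treatment named, and both were purified by negative selection. The number and age of the mice behind each preparation are not given in the sources used here. Each preparation was hybridised to 1 Affymetrix MOE430 2.0 array, on which sets of short probes read a transcript. With 1 array per cell type there is no replicate, no error and no test, and every ratio compares these 2 preparations.

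A T cell needs a signal beside that of its antigen receptor, and CD28 is the classical source of it when it binds CD80 or CD86 on a presenting cell. CTLA-4 binds the same ligands and holds the response back, ICOS is a related costimulator, and PD-1 and BTLA carry cytoplasmic tyrosine motifs that recruit phosphatases. In naive lymphocytes CD28 is already present, whereas CTLA-4, ICOS, PD-1, LAG-3 and TIM-3 are best known as receptors that appear or increase after activation.

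Values are linear signals scaled by the authors, with a median of 243.3 with gamma/delta RNA and 242.1 with alpha/beta RNA. The higher median, 243.3, served as a floor. Signals under it were set to it before taking log2 of gamma/delta over alpha/beta, so that a gene under the floor on 1 array has only a bound, written "at least", and a gene with both signals under it has no ratio. A gene took its probe set of highest mean log2 signal, and a ratio of 2-fold or more was called. Between probe sets of one gene on this pair of arrays, the pooled SD of the log2 ratio was 0.50 over 3317 genes. The labels held against lineage markers. Trgv4 read 12522 with gamma/delta RNA and 170 with alpha/beta RNA, and Cd8a read 731 and 8852. Signal at the 3′ end over that at the 5′ end, which rises as RNA degrades, was 6.99 and 3.12 for actin, 3.06 and 3.24 for Gapdh, and 3.97 and 4.47 for the transferrin receptor, gamma/delta first.

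Btla and Cd96 read higher in gamma/delta T cells, Cd28 read higher in alpha/beta T cells, and Icos leaned the same way as Cd28 on all 3 of its probe sets. Ctla4 had nearly the same signal on both arrays. Neither preparation gave Pdcd1, Lag3 or Havcr2 a signal above the floor. Of the 10 genes 7 had a ratio, 5 of them above the floor on both arrays. At 2-fold, 2 were higher in gamma/delta cells, where 5.82% of all 11914 genes with a ratio were, and 1 was higher in alpha/beta cells, where 3.93% were. A single gene is 14.3% of 7, so these shares rest on 3 genes. Btla passed the floor only through gamma/delta cells and Cd226 only through alpha/beta cells, so each had to lean that way. The median log2 ratio over the 7 genes was -0.09, beside 0.03 over all genes with a ratio. Counted by probe set, 13 of 16 had a ratio, with 2 past 2-fold towards gamma/delta cells (5.20% of all probe sets with 1 symbol and a ratio) and 2 in alpha/beta cells (4.37%).

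**Figure D1:**
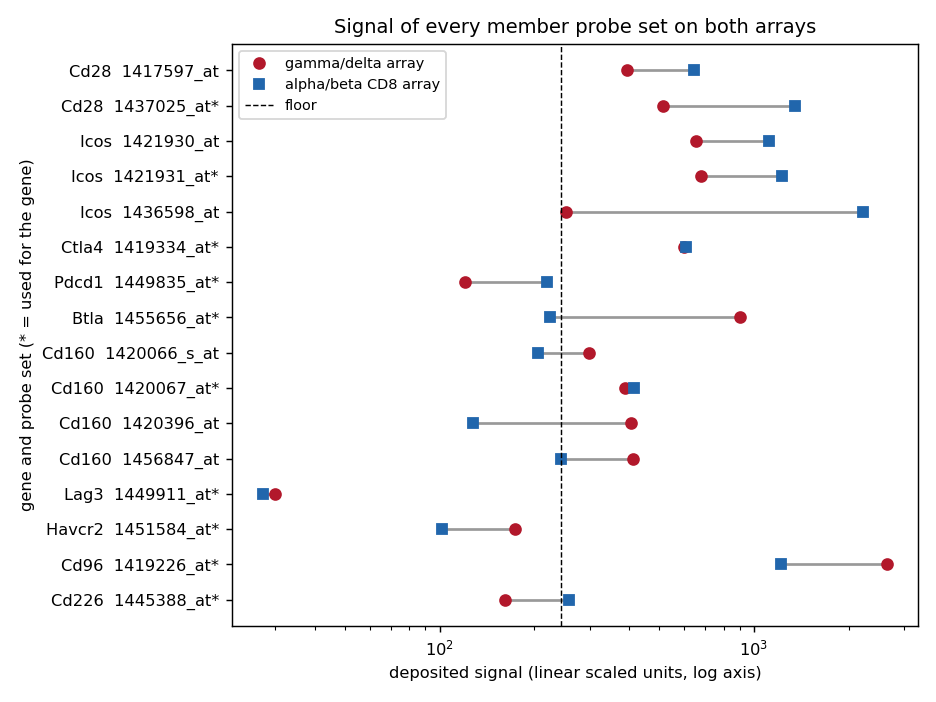
Deposited signal of each of the 16 probe sets on the gamma/delta array (circles) and the alpha/beta CD8 array (squares), in linear scaled units on a log axis, with the floor of 243.3 as a dashed line and an asterisk at the probe set used for the gene. Both Cd28 and all 3 Icos probe sets have the alpha/beta point to the right, while Btla (905 against 224) and Cd96 (2654 against 1221) have the gamma/delta point to the right.

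Cd28, the costimulatory receptor for CD80 and CD86, was read by 2 probe sets. The one used for the gene (1437025_at) had a signal of 513 with gamma/delta RNA and 1349 with alpha/beta RNA. The other (1417597_at) had signals of 393 and 644. All 4 signals lay above the floor, and both probe sets were lower in gamma/delta cells. The folds were 2.63 (log2 ratio -1.39) and 1.64 (log2 ratio -0.71), so only the first reached 2-fold. The log2 ratios were 0.68 apart, beside a median span of 0.60 between probe sets of a gene. Of all genes with a ratio, 1.12% had a lower log2 ratio than Cd28. In RNA from a whole preparation, fewer cells that carry a transcript and less transcript per cell cannot be told apart. Among 5 markers of helper and regulatory T cells, which also carry Cd28, 4 lay under the floor on both arrays. Foxp3 (3.40 and 21.4), Zbtb7b (42.0 and 181) and Cd40lg (9.12 and 214) read lower with gamma/delta RNA. Cd4 was nearly equal (180 and 185). The 5 summed to 567 with gamma/delta RNA against 793 with alpha/beta RNA. Il2ra alone passed the floor, with gamma/delta RNA (333) and not with alpha/beta RNA (192). The part of such cells in the Cd28 value was not tested.

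Icos, the inducible costimulator that binds ICOS ligand, was lower in gamma/delta cells by every probe set, and its size depended on which one was read. The first of 2 probe sets annotated to one sequence record (1421930_at) had signals of 653 with gamma/delta RNA and 1118 with alpha/beta RNA. The second (1421931_at), used for the gene, had signals of 679 and 1230. Their folds of 1.71 and 1.81 towards alpha/beta cells were close to each other and under the 2-fold call. The third probe set, 1436598_at, annotated to another record, had signals of 251 and 2226. On it Icos was 8.86-fold higher in alpha/beta cells (log2 ratio -3.15), with a gamma/delta signal barely above the floor. The log2 ratios of the 3 probe sets spanned 2.37, and 0.69% of the 3317 genes with several probe sets above the floor had a span as wide. With the log2 signals of a gene's probe sets averaged, Icos was called, at a log2 ratio of -1.59, and Cd28 remained past 2-fold at -1.05. Where each probe set lies on the transcript was not analysed here. The 3′ to 5′ ratio of actin also differed between the arrays (6.99 and 3.12). Those of Gapdh (3.06 and 3.24) and the transferrin receptor (3.97 and 4.47) were closer and slightly higher with alpha/beta RNA. The part of RNA quality in this spread was not tested.

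Ctla4, the inhibitory counterpart of Cd28, had a signal of 597 with gamma/delta RNA and 608 with alpha/beta RNA on its 1 probe set. The log2 ratio was -0.03, and 45.7% of genes with a ratio lay below it. Both signals were above the floor. Regulatory T cells carry CTLA-4 constantly, and their factor Foxp3 read 3.40 and 21.4, under the floor on each array. The part of such cells in the Ctla4 value was not tested. Cd28, Ctla4 and Icos stand next to one another on mouse chromosome 1, with Ctla4 the only protein-coding gene between the other two in the RefSeq table of GRCm38.p6. The 3 neighbours therefore did not share one ratio, with Ctla4 near 0 between 2 genes that read lower in gamma/delta cells. Outside them, Raph1 on the Cd28 side stood at -0.27 on the log2 scale, with its 3 probe sets between -0.42 and 0.65. Pard3b on the Icos side was higher in gamma/delta T cells by at least 1.66-fold (403 against 204).

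Pdcd1, which encodes PD-1, had signals of 120 and 219 on its 1 probe set, both under the floor, so no ratio is given. Its ligand gene Cd274, which encodes PD-L1, read 1576 with gamma/delta RNA and 782 with alpha/beta RNA. Cd274 was thus higher by 2.02-fold in gamma/delta T cells, right at the 2-fold call, which it lost after quantile normalization. Pdcd1lg2, which encodes the other ligand of PD-1, read 436 and 381.

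Btla, the receptor for HVEM, had the largest difference among the 10 genes by the probe sets used. Its 1 probe set (1455656_at) read 905 with gamma/delta RNA and 224 with alpha/beta RNA, where it was under the floor. Btla was therefore higher in gamma/delta T cells by at least 3.72-fold, a log2 bound of 1.90, and 0.83% of genes with a ratio had a higher value, with bounds taken as they stand. When the floor was raised to the 70th percentile the bound fell to a log2 ratio of 1.02. Tnfrsf14, which encodes HVEM, read 38.1 and 44.4 on its 1 probe set, under the floor in both preparations. B cells also carry BTLA. Of 9 B cell markers measured, 6 passed the floor in the gamma/delta preparation and 5 in the other, with summed signals of 6590 and 5521. None reached 2-fold by the probe set used. Cd79a (43.5 and 188), Cd22 (159 and 33.7) and Pax5 (104 and 159) stayed under the floor. Above it, Ebf1 read 3331 and 2650, the largest part of both sums, Ighm read 1025 and 789, and Ms4a1 read 858 and 616. Fcer2a went the other way, with 295 and 462. The 3 Ighm probe sets with a ratio lay between log2 ratios of -0.28 and 1.21. The highest of them thus passed 2-fold towards gamma/delta cells. The part of B cell RNA in the Btla value was not tested.

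Cd96, a receptor for CD155 that T and NK cells share, had a signal of 2654 with gamma/delta RNA and 1221 with alpha/beta RNA. Both signals of its 1 probe set (1419226_at) were well above the floor, and the ratio was 2.17-fold towards gamma/delta cells (log2 ratio 1.12). Of genes with a ratio, 4.25% had a higher one. Cd226, which encodes DNAM-1 and competes with CD96 for CD155 as an activating receptor, read 161 and 258. Cd226 was under the floor in gamma/delta cells and only just above it in alpha/beta cells, at least 1.06-fold higher there. Without a floor the log2 ratio of Cd226 was -0.68, from signals this low, and still short of 2-fold. Their shared ligand gene Pvr, which encodes CD155, read 548 and 614. NK cells express both receptors. Of 6 NK cell markers measured, Ncr1, Klra8, Tyrobp and Gzmb stayed under the floor in both preparations, Gzma was higher in gamma/delta T cells by at least 5.93-fold (1442 against 73.4) and Prf1 read 365 and 282. The list summed to 2092 against 972, with most of the gamma/delta sum from Gzma. Under the floor, Ncr1 (6.76 and 155), Klra8 (29.0 and 207) and Gzmb (219 and 229) read lower with gamma/delta RNA, and Tyrobp (30.3 and 25.5) did not. The part of NK cell RNA in the Cd96 value was not tested.

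Btla and Cd96, the 2 genes called higher in gamma/delta cells, both lie on mouse chromosome 16. Between them are 11 protein-coding genes, of which 5 had a ratio. Of those 5, none was higher in gamma/delta T cells by 2-fold, and Plcxd2, next to Cd96 on that side among genes with a ratio, was 2.33-fold higher in alpha/beta cells (596 against 1386), while its other probe set had a log2 ratio of -0.13. Cd200, the neighbour of Btla that encodes an immunoregulatory ligand, read 448 and 384. RefSeq sequence upstream of a transcript start was at hand for 6 of the 10 genes, and not for Cd28, Icos, Lag3 and Cd226. The 250 bases before the start are shown for Btla and Cd96, because these genes were higher in gamma/delta cells, and for Ctla4, whose signals were nearly equal. They read 5′ to 3′ on the gene's own strand, in build GRCm38.p6. Btla is at chr16:45224087-45224336 on the plus strand, Cd96 at chr16:46120249-46120498 on the minus strand and Ctla4 at chr1:60908775-60909024 on the plus strand. Capitals mark matches, on either strand, to GGAAA (the core of NFAT sites) or TGNGGT (the core of RUNX sites).
Btla: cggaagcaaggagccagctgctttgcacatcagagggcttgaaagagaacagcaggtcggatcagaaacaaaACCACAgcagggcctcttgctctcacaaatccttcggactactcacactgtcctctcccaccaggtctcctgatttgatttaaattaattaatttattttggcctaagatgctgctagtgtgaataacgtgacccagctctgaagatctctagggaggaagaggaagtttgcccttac
Cd96: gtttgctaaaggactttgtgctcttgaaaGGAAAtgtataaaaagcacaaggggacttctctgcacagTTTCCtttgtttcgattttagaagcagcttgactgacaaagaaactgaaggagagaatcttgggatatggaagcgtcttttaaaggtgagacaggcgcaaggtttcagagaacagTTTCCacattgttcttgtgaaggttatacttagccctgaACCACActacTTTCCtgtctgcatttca
Ctla4: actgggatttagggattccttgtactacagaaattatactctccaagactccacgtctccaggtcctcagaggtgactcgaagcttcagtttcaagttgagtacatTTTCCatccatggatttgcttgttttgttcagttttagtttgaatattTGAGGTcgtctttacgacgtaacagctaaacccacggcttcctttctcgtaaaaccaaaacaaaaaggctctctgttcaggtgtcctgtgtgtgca

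The Cd96 window held 4 matches to GGAAA, 221, 182, 67 and 18 bases before the start, and 1 to TGNGGT at 28 bases. The Btla window held 1 match to TGNGGT at 178 bases. The Ctla4 window held 1 of each, at 144 and 96 bases. In the 32851 windows of this length in the table, 55.6% held GGAAA and 40.1% held TGNGGT on either strand. How many windows held several matches was not counted. The letters of 3 other motifs, TGANTCA (AP-1), CTTTGA (TCF/LEF) and TGCTGA (a MAF half-site), were found in none of the 3 windows and in 6.75%, 13.8% and 16.1% of all windows. A match is a description of letters and not a bound site.

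**Figure D2:**
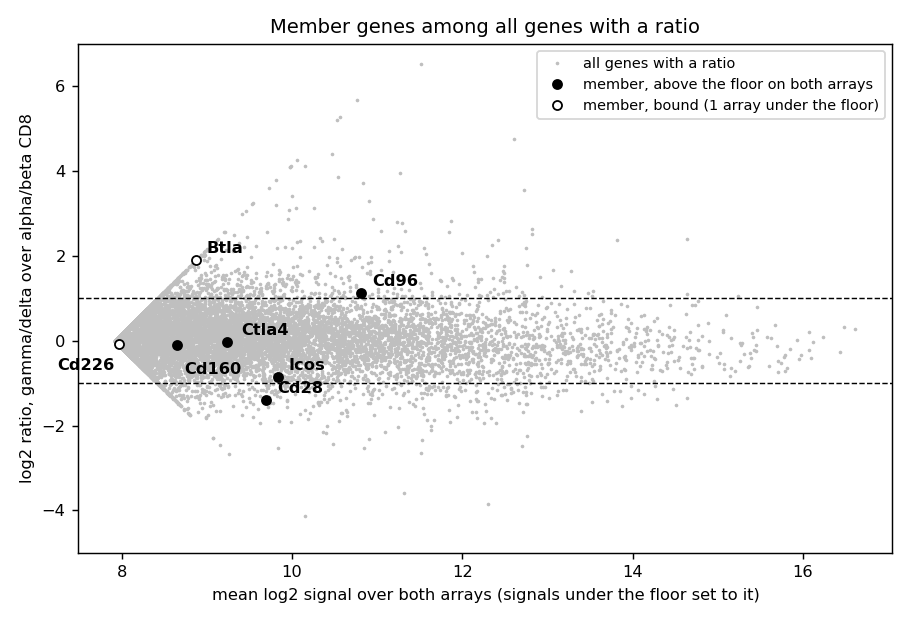
Log2 of gamma/delta over alpha/beta CD8 signal (y axis) against the mean log2 signal over both arrays (x axis), with signals under the floor set to it, for all 11914 genes with a ratio (grey) and the 7 member genes with one (black, open where 1 array was under the floor). Dashed lines mark 2-fold, past which lie Btla at 1.90, Cd96 at 1.12 and Cd28 at -1.39, and the straight left edges of the grey cloud are the bounds the floor makes.

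Cd160, a receptor for HVEM and class I molecules on cytotoxic lymphocytes, was read by 4 probe sets that did not settle a direction. The one used for the gene (1420067_at) had signals of 388 with gamma/delta RNA and 414 with alpha/beta RNA, a log2 ratio of -0.09. The others were all higher in gamma/delta cells. One (1456847_at) read 411 against 243.4, a signal barely above the floor, and was 1.69-fold higher. Another (1420396_at) read 407 against 127 and was at least 1.67-fold higher, and the last (1420066_s_at), whose suffix marks probes shared by several transcripts, read 298 against 205 and was at least 1.22-fold higher. No probe set of Cd160 was called at 2-fold by these values. Without a floor 1420396_at was 3.19-fold higher in gamma/delta cells, from an alpha/beta signal of 127, under the floor. With the 4 averaged, the log2 ratio turned to 0.61, towards gamma/delta cells.

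Lag3, which encodes a receptor for class II molecules, read 29.999 with gamma/delta RNA and 27.365 with alpha/beta RNA. Havcr2, which encodes TIM-3, read 174 and 102. All 4 signals were under the floor, so neither gene has a ratio, and a transcript below the floor is not shown to be absent. Lgals9, which encodes galectin-9, a ligand of TIM-3, was higher in gamma/delta T cells by at least 3.09-fold (752 against 107). Fgl1, which encodes a ligand of LAG-3, read 590 and 396, and Lgals3, which encodes another, was under the floor on both arrays.

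No marker of T cell activation reached 2-fold. Cd69, an early activation antigen, read 17258 and 18670, Cd44 read 525 and 421, and the proliferation marker Mki67 read 926 and 774. The probe sets of Cd44 differed in sign, with log2 ratios between -0.85 and 0.97. Il2ra was higher in gamma/delta T cells by at least 1.37-fold (333 against 192).

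Genes around these receptors were taken as 4 lists, in which 59 of 64 symbols matched and 50 had a ratio. Of the 50, 6 were called towards gamma/delta and 2 towards alpha/beta cells, beside 5.82% and 3.93% of all genes with a ratio, and the median log2 ratio was 0.19, beside 0.03 over all genes. Among 9 ligand genes with a ratio, Cd274 and Lgals9 were 2-fold higher in gamma/delta cells and the other 7 were not called by the probe sets used. Of these, Icosl, which encodes ICOS ligand, has only a bound, at least 1.02-fold towards gamma/delta cells (249 against 88.9). Without a floor Icosl was called in that direction. Of the ligands of CD28 and CTLA-4, Cd80 read 309 and 295, above the floor, and Cd86 read 120 and 102, under it. Ceacam1, which encodes a ligand of TIM-3, read 1500 and 1590, with its probe sets between log2 ratios of -0.63 and 0.70. Nectin3, which encodes an adhesion molecule of the nectin family, read 884 and 775. Its probe sets lay between log2 ratios of 0.19 and 1.08, so the highest passed 2-fold towards gamma/delta cells.

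Of 10 other inhibitory receptor and adaptor genes with a ratio, none reached 2-fold in either direction by the probe set used. Of all genes with a ratio, 5.82% did so towards gamma/delta and 3.93% towards alpha/beta cells, so few calls would fall in a list this short. The median was 0.34. Lair1, which encodes an inhibitory receptor for collagen, had 2 probe sets with a ratio that differed, with bounds of 0.01 for the one used and 2.06 for the other, and it was called when suffixed probe sets were left out. With the floor at the 30th percentile Sit1 was called towards gamma/delta and Pilra towards alpha/beta cells. Pag1, an adaptor that brings the inhibitory kinase CSK to the membrane, read 5698 and 4284. Cd244a, a SLAM family receptor, read 1475 and 1216, and Vsir, which encodes VISTA, read 1030 and 1383.

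Downstream of the receptors, 20 signalling genes had a ratio, with 2 called towards gamma/delta, 1 towards alpha/beta cells (5.82% and 3.93% of all genes) and a median of 0.17. Counts of 2 and 1 among 20 are too small to set this list apart from all genes. Trat1, an adaptor that helps carry CTLA-4 to the cell surface, was higher in gamma/delta T cells by 4.62-fold (2084 against 451), and its 2 probe sets had log2 ratios of 2.21 and 1.27. Ptpn6, which encodes the phosphatase SHP-1 that BTLA recruits, was higher in gamma/delta T cells by 3.05-fold (878 against 288), by 1 of its 2 probe sets, the other being under the floor. Ptpn11, which encodes the related phosphatase SHP-2, read 2602 and 3159. Rab11a, a GTPase of recycling endosomes, was 2.13-fold higher in alpha/beta cells by the probe set used (640 against 1365), while its other probe set had a log2 ratio of 0.99 in the opposite direction. The kinase gene Fyn read 6342 and 8660. Pik3ca, which encodes a catalytic subunit of the lipid kinase that CD28 and ICOS engage, read 3473 and 6376 with a log2 ratio of -0.88. Its probe sets lay between log2 ratios of -1.30 and 0.12. Ppp2r1a, the scaffold subunit of phosphatase 2A, read 5575 and 3860, with probe sets between -0.42 and 0.61.

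Of 11 transcription factor genes with a ratio, 2 were 2-fold higher in gamma/delta cells, 1 in alpha/beta cells (5.82% and 3.93% of all genes), and the median was 0.33. The counts rest on 3 genes, of which Nfatc2 and Nr4a3 had probe sets that disagreed in sign. Nr4a1, which antigen receptor signals induce, was higher in gamma/delta T cells by at least 3.97-fold (965 against 192). Nfatc2, which encodes a calcium-driven NFAT factor, was 2.10-fold higher by the probe set used (1379 against 656), and its probe sets lay between log2 ratios of -0.40 and 1.07. Nr4a3 was higher in alpha/beta T cells by 5.39-fold (615 against 3319), while its other probe set with a ratio had a log2 ratio of 0.20. Bcl6 read 2820 and 2990, Tox, a factor of sustained checkpoint expression, read 2349 and 1624, and Nfatc1 read 1455 and 2051. Probe sets differed in sign for Tox (log2 ratios between -0.55 and 0.53) and Nfatc1 (between -0.50 and 0.36).

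**Figure D3:**
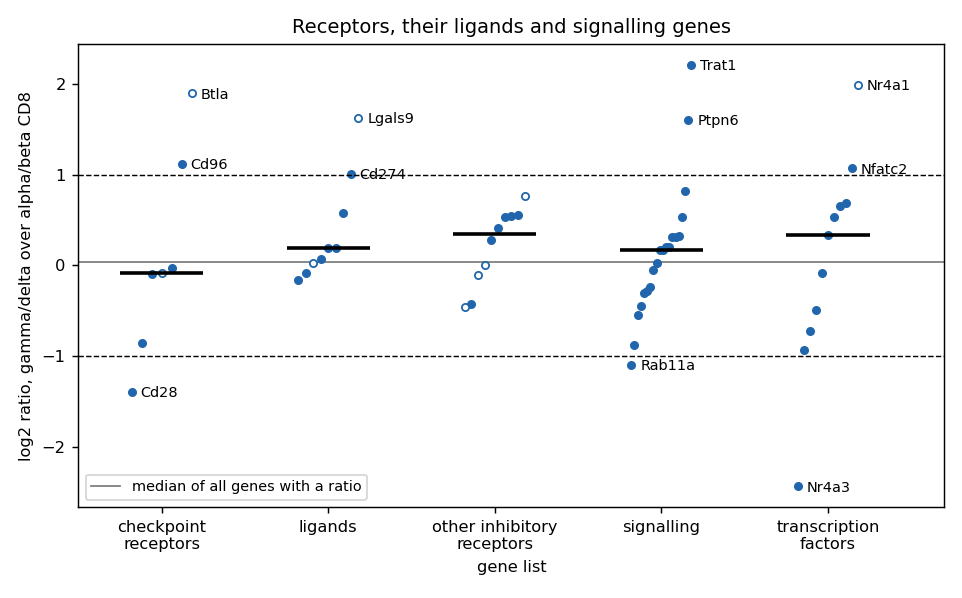
Log2 of gamma/delta over alpha/beta CD8 signal (y axis) for each gene with a ratio in the receptor list and the 4 surrounding lists (x axis), 1 point per gene, open where 1 array was under the floor. Black bars are list medians (-0.09 for the receptors, then 0.19, 0.34, 0.17 and 0.33), the grey line is the median of all genes, dashed lines mark 2-fold and genes past them are named.

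**Figure D4:**
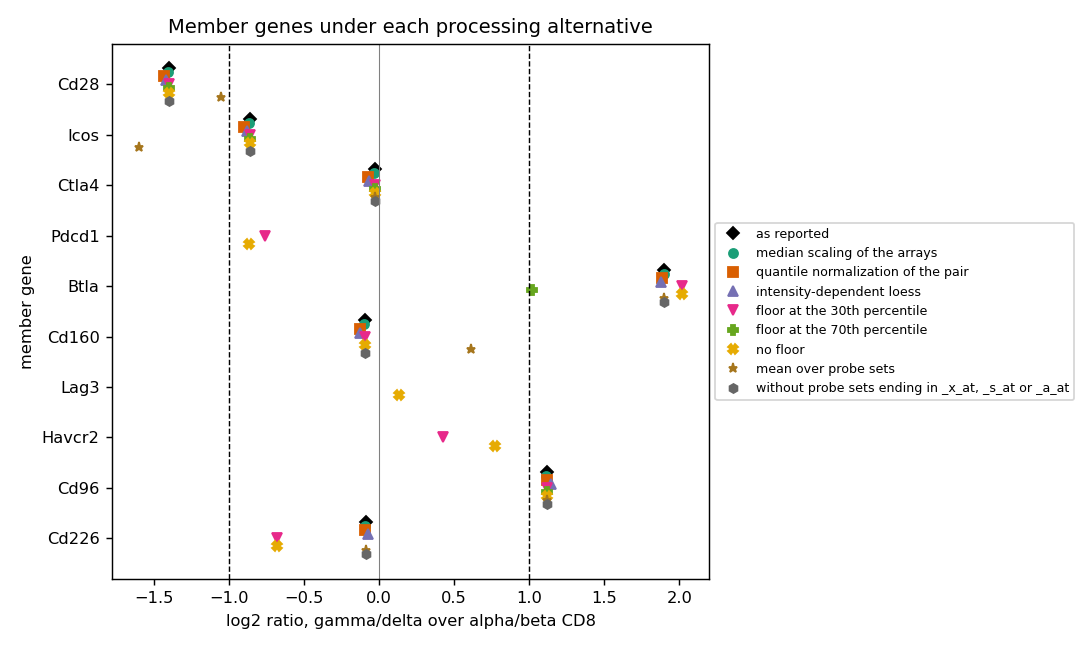
Log2 of gamma/delta over alpha/beta CD8 signal (x axis) of each member gene (y axis) as reported (black diamonds) and under each of 8 processing alternatives (other symbols), with 2-fold as dashed lines. Btla and Cd96 stay right of the upper line and Cd28 left of the lower one throughout, Icos passes the lower line only with probe sets averaged, and Pdcd1, Lag3 and Havcr2 have values only under a lower floor or none.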

How the data were processed

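RNA of 2 samples was read on 1 array each. The deposited intensity per probe set was computed by the authors using MAS5 and Affymetrix Expression Console 1.0, according to the submitters' processing notes. MAS5 subtracts a mismatch estimate, so low signals carry little order. On both arrays the mean with 2% trimmed at each end was 500.003, so they had been scaled alike, and values were used as deposited. Gene names came from a platform annotation, and all 10 members' identifiers were found in RefSeq's table of GRCm38.p6. Of 45101 probe sets, 64 controls, 932 with several symbols and 9160 unnamed were left out. Python 3.11.15, pandas 2.3.3 and statsmodels 0.14.6 were used. Functions were tested on simulated arrays with large changes in genes of high signal, a test that does not cover calls near the floor or near 2-fold. The members and lists were chosen with earlier results of these data known. Named genes were every member, list genes past 2-fold and up to 3 others per list by highest mean signal. Further genes were named for their relation to a member, after values were seen. These were Icosl, Pdcd1lg2, Tnfrsf14, Cd80, Cd86, Fgl1, Lgals3 and Ptpn11 among the lists, markers and chromosomal neighbours. The number of arrays limits the precision. Alternatives were median, quantile and loess normalization, floors at the 30th and 70th percentile and none, probe sets averaged, suffixed probe sets left out, and a 3-fold call.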

Additional observations from a re-analysis of the deposited data

How the results depend on the processing

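Btla and Cd96 stayed past 2-fold towards gamma/delta cells, and Cd28 towards alpha/beta cells, under the 8 alternatives that keep the 2-fold call. Several of these could not change a call. Btla and Cd96 have 1 probe set each, without a suffix, so averaging or leaving out suffixed probe sets kept their values. Leaving out suffixed probe sets kept that of Cd28 too. Signals of Cd96 and of the Cd28 probe set used lay above every floor tried, so the floors kept their ratios. At 3-fold, 1 member gene was higher in gamma/delta cells (Btla) and 0 in alpha/beta cells. With the log2 signals of probe sets averaged, 2 member genes were higher in alpha/beta cells (Cd28 and Icos) and Cd160 turned from a log2 ratio of -0.09 to 0.61. Across the alternatives Cd96 ranged from 1.11 to 1.14, Cd28 from -1.43 to -1.05, Btla from 1.02 to 2.02 and Icos from -1.59 to -0.86. The median of the member genes ranged from -0.09 to -0.03. Of the surrounding lists, 5 genes were 2-fold higher in alpha/beta cells without a floor, 1 when suffixed probe sets (_x_at, _s_at, _a_at) were left out, 1 at 3-fold and 0 with probe sets averaged, beside 2 as reported. Those as reported were Nr4a3 and Rab11a. Without a floor Foxp3, Grap2 and Pilra joined them, each with a signal under the floor on 1 or both arrays. Nr4a3 alone remained at 3-fold and without suffixed probe sets, where the probe set used for Rab11a, a suffixed one, drops out. No paired analysis was possible because each group is 1 array, and no replicate could be left out. Low signal limits Pdcd1, Lag3, Havcr2 and Cd226.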
